A study of Mus musculus with 2 samples.

Results

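Planar cell polarity genes were followed in total RNA from the neural tube, the forerunner of brain and spinal cord, of mouse embryos. The 10 genes Vangl1, Vangl2, Celsr1, Celsr2, Celsr3, Prickle1, Prickle2, Scrib, Ptk7 and Dact1 were chosen by name, as known members of the pathway, and taken from the 43346 gene rows of the deposited tables by Ensembl identifier. All 10 had a row. The tissue came from B6NCrl mice at embryonic day 14.5, with no genetic change or treatment given in the labels. The study holds 1 group of 2 libraries, each from 10 ng of RNA of the tube of 1 pup, replicate 1 from 1 pregnant female and replicate 2 from another. With a single group there is no contrast to test, so no p-value is given. Levels are in TPM, an abundance scaled for transcript length and library depth, as both library values or as the mean ± SD (n = 2). A difference between replicates 1 and 2 compares those pups and nothing wider.

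Planar cell polarity is the system by which neighbouring cells of a sheet share an orientation within its plane. Its core proteins form unequal complexes across cell borders: Celsr cadherins join neighbouring cells, Vangl and Prickle proteins gather on one side, and Frizzled receptors with Dishevelled on the other. In the neural tube the pathway narrows and lengthens the neural plate before the tube closes, and mice that lack Vangl2, Celsr1, Scrib or Ptk7 function can fail to close it. After closure the same genes are known for roles in neuron migration, axon guidance and the cilia of ependymal cells.

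Total expected counts, the authors' estimated reads, were 33360108 in replicate 1 and 26025302 in replicate 2. Markers of the labelled tissue were present, with all 7 neuron genes and all 7 progenitor and radial glia genes over 1 TPM in both libraries. Sex-linked RNA differed although the labels give pooled sexes. Xist had 70.8 TPM in replicate 1 and 0.05 in replicate 2. The Y-linked Eif2s3y had 0 and 45.9, and the Y-linked Ddx3y 0.02 and 30.6. Sex and pup therefore cannot be told apart in any difference between the libraries. Markers of adjoining tissue, vessels and microglia also differed. The 6 meninges and fibroblast genes summed to 44.2 TPM in replicate 1 and 977.9 in replicate 2, and all 6 were at least 1.5-fold higher in replicate 2. Of 7 sensory ganglion genes 6 were higher by that measure (sums 152.9 and 523 TPM), as were 5 of 6 Schwann cell genes (1785 and 1859, most of it Fabp7, which radial glia share), 5 of 5 endothelial genes (60.7 and 151.3) and 3 of 4 microglia genes (49.9 and 90.3). The 4 skeletal muscle genes were higher in replicate 1 (39.1 and 20.1). Cdh19 of the Schwann cell list was at 0 counts in replicate 1, which allows up to 3 counts, and no other marker on these lists was at 0. Neuron genes summed to 3725 and 3663 TPM with none of 7 past 1.5-fold, and progenitor genes to 2372 and 2587 with 1 of 7, Nes, past it. Of 5 floor plate and ependymal genes (74.3 and 86.2 TPM) 1, Foxj1, was past it, lower in replicate 2.

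All 10 genes were expressed at 1 TPM or more in both libraries, a level that 60.8% of 21474 protein-coding genes reached. The median of the 10 genes was 19.3 TPM in replicate 1 and 21.1 in replicate 2, against 4.88 and 5.67 for all protein-coding genes. Protein-coding genes that reached 1 TPM in both libraries had a median of 21.2 TPM, and 5 of the 10 genes lay above it. Levels ran from 1.71 ± 0.106 TPM for Celsr1 to 44.2 ± 3.08 for Celsr2, in the order Celsr2, Vangl2, Dact1, Prickle1, Celsr3, Prickle2, Ptk7, Scrib, Vangl1 and Celsr1. Of neighbours in that order, Dact1 and Prickle1, Prickle1 and Celsr3, and Ptk7 and Scrib had overlapping library ranges, and the other neighbours did not overlap. In whole tissue, fewer cells of a type and less RNA per cell cannot be told apart.

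**Figure D1:**
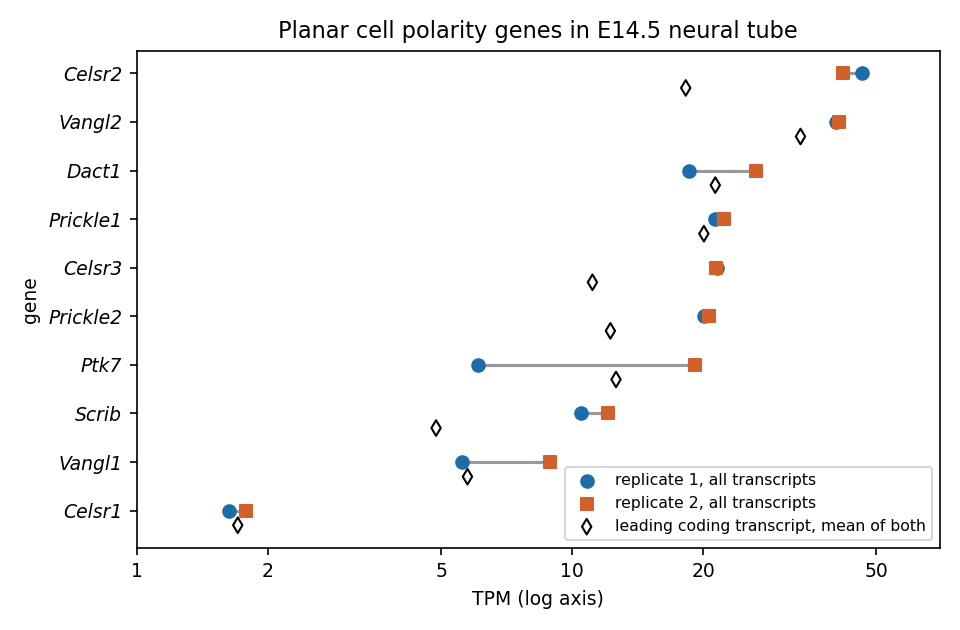
TPM of each gene on a log axis in replicate 1 (circles) and replicate 2 (squares), joined by a grey line, with the mean of the leading coding transcript as an open diamond. Ptk7 has the widest gap between the libraries (6.09 and 19.2 TPM), and the diamond of Celsr2 lies at 18.2 TPM, far left of its gene level of 44.2.

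Vangl2 was the main Vang-like gene. Vang-like proteins span the membrane and recruit Prickle to one side of the cell. Vangl2 (ENSMUSG00000026556.11, chromosome 1, 172000960 to 172028444, minus strand, GRCm38) had 40.5 and 41.1 TPM in replicates 1 and 2, from 3834 and 2999 counts. Its level was nearly equal in the libraries, and 19.1% of protein-coding genes had a higher mean. Vangl1 (ENSMUSG00000027860.11, chromosome 3, 102153583 to 102204693, minus strand) had 5.58 and 8.89 TPM, from 319 and 361 counts. The Vangl2 level was 7.26 times that of Vangl1 in replicate 1 and 4.63 times in replicate 2, a mean log2 difference of 2.54 with an SD of 0.46. The direction was shared and the difference was several times the spread between the libraries, and between the libraries Vangl1 moved more (1.59-fold by TPM) than Vangl2 (1.02-fold). Within Vangl2, the transcript Vangl2-201 carried 79.7% and 84.5% of the TPM, and 2 short coding models, Vangl2-206 and Vangl2-204, carried most of the rest. The 3 models under 1000 bases carried 18.8% and 15.0% of the TPM with only 2.69% and 2.23% of the reads. No exonic base is unique to Vangl2-201. The model Vangl2-202 has the same coding exons but starts farther upstream, and it carried 1.17% and 0.55%. Within Vangl1, Vangl1-202 carried 81.2% and 78.4%, or 62.8% and 65.6% by the authors' posterior mean. The 5 Vangl1 models under 1000 bases carried 18.8% and 21.6% of the TPM with 4.57% and 4.24% of the reads. The Vangl1-202 model is 3413 bases long in the deposited files and 3207 in the later annotation used here for exons, so bases unique to it were not counted. In that annotation Vangl1-201 has the longest coding sequence, 1578 bases against 1179 for Vangl1-202, and it had 0 TPM in both libraries. Vangl1-201 is 1744 bases long in the deposited files and 6531 in the later annotation. The effect of this on the Vangl1 level was not tested.

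The Celsr genes encode large cadherins that cross the membrane several times, and they were expressed unequally. Celsr2 (ENSMUSG00000068740.9, chromosome 3, 108390851 to 108415552, minus strand) had 46.4 and 42.0 TPM, from 4953 and 3508 counts. Celsr3 (ENSMUSG00000023473.7, chromosome 9, 108826320 to 108852969, plus strand), known for its part in axon tract formation, had 21.6 and 21.5 TPM, from 2927 and 1866 counts. Celsr1 (ENSMUSG00000016028.9, chromosome 15, 85898929 to 86033777, minus strand), known from neural tube closure and skin, had 1.63 and 1.78 TPM, from 361 and 292 counts. The libraries gave the same order without overlap. Celsr2 exceeded Celsr1 28.4-fold and 23.6-fold, Celsr3 exceeded Celsr1 13.2-fold and 12.1-fold, and Celsr2 exceeded Celsr3 2.15-fold and 1.96-fold in replicates 1 and 2.

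Much of the TPM of Celsr2 and Celsr3 came from short transcript models that hold few reads. Celsr2 has 7 models, and the full-length coding model Celsr2-201, of 10598 bases, carried 40.7% and 42.0% of its TPM. The shorter coding model Celsr2-206, of 3486 bases, carried 25.1% and 31.3%. The 5 models under 1000 bases, all non-coding, carried 34.2% and 26.8% of the TPM with 2.78% and 2.04% of the reads. Of these, Celsr2-205 is 467 bases long and was given 75.3 and 38.9 counts, and no base of it is unique to it. For Celsr3 the full-length model Celsr3-201, of 11547 bases, carried 56.2% and 47.4%, and 4 models under 1000 bases carried 40.6% and 40.8% with 3.29% and 3.90% of the reads. TPM divides reads by length, so a few reads given to a short model add as much as many reads on a long one. Celsr1 has a single model, so its level has no such part.

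Counted by the leading coding transcript alone, an alternative chosen after seeing the data, the order of the genes changed. Vangl2 then stood highest (33.5 ± 1.73 TPM), followed by Dact1 (21.3 ± 5.40), Prickle1 (20.1 ± 0.53) and Celsr2 (18.2 ± 0.891). Celsr3 had 11.1 ± 1.38 and Celsr1 1.71 ± 0.106. The order Celsr2, Celsr3, Celsr1 held in both libraries. The excess of Celsr2 over Celsr1 then came to 3.42 on the log2 scale against 4.70 over all transcripts.

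**Figure D2:**
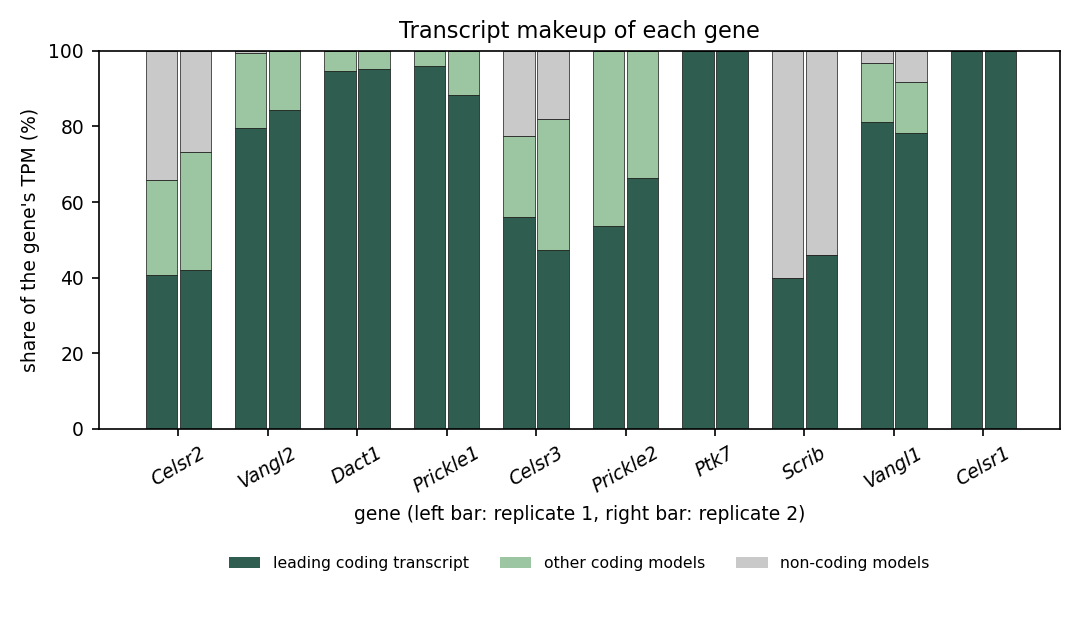
Share of each gene's TPM, in percent, in its leading coding transcript (dark), other coding models (light green) and non-coding models (grey), with replicate 1 as the left bar and replicate 2 as the right. Ptk7 and Celsr1 have 1 model each, and the leading coding transcript holds under 60% in both libraries for Celsr2, Celsr3 and Scrib.

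Prickle1 and Prickle2 encode LIM-domain proteins that bind Vangl at the membrane, and they were expressed at like levels. Prickle1 (ENSMUSG00000036158.8, chromosome 15, 93499114 to 93595891, minus strand) had 21.3 and 22.4 TPM, from 1722 and 1336 counts. Prickle2 (ENSMUSG00000030020.9, chromosome 6, 92370908 to 92706155, minus strand) had 20.1 and 20.7 TPM, from 2612 and 2036 counts. Prickle1 was the higher by 1.06-fold and 1.08-fold. The library values did not overlap, but the authors' credibility bounds of the genes did (19.8 to 21.7 and 18.7 to 20.4 TPM in replicate 1). By leading coding transcript the gap was wider, at 20.1 TPM for Prickle1-201 and 12.2 for Prickle2-201, since Prickle2 divides its level among more models.

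The genes differed in where their transcripts start. Prickle1-201 starts at 93595891 and carried 96.1% and 88.2% of the Prickle1 TPM. Prickle1-202 starts 76.4 kb downstream, carried 3.93% and 11.8%, and has the same coding exons, so both starts encode the same protein. The shares rest on few bases, since 201 exonic bases are unique to Prickle1-201 and 260 to Prickle1-202. The credibility bounds of Prickle1-202 were 0.203 to 2.10 TPM in replicate 1 and 1.24 to 5.03 in replicate 2 and overlapped, so the higher share in replicate 2 was not separable at this depth.

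Prickle2 used several starts. Prickle2-201, from the most upstream start at 92706155, carried 53.7% and 66.3% of its TPM. The 3 internal starts together carried 46.3% and 33.7%. Of them Prickle2-202, whose start lies 224.8 kb downstream, carried 30.9% and 26.5%, with 568 exonic bases of its own. Prickle2-203 carried 15.3% in replicate 1 and 0% in replicate 2, and Prickle2-204, with 63 bases of its own, 0% and 7.14%. By the authors' posterior mean these were 15.0% and 2.31% for Prickle2-203 and 4.92% and 13.3% for Prickle2-204, with Prickle2-201 at 49.1% and 57.9%, so in replicate 1 the upstream start then held less than the internal starts together. The bounds of Prickle2-203 were 1.69 to 4.33 TPM in replicate 1 and at most 1.53 in replicate 2, so they did not overlap, whereas those of Prickle2-204 did (at most 2.52, and 0.0636 to 6.38). By reads Prickle2-202 held a smaller part than by TPM, with 454.0 and 296.2 of the gene's 2612 and 2036 counts. Its model is 3708 bases long and that of Prickle2-201 7760. Prickle2-201 held 1674.1 and 1572.3 counts, the most of any model in both libraries. The internal models share their coding exons with each other. Their coding sequence is 168 bases, or 56 codons, shorter than that of Prickle2-201, which adds coding exons at its upstream end.

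**Figure D3:**
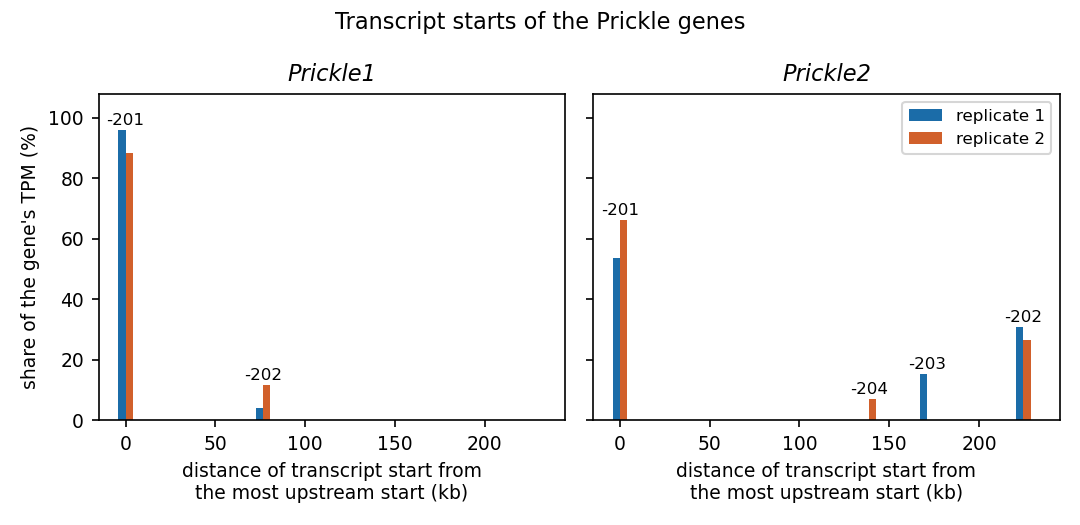
Share of TPM, in percent, against the distance in kb of each transcript start from the most upstream start of Prickle1 (left) and Prickle2 (right), with replicate 1 in blue and replicate 2 in orange and the model number above the bars. Prickle1 has 1 dominant start, and Prickle2 has its largest share at the upstream start and its next at Prickle2-202, 224.8 kb away.

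The 250 bases before the matching RefSeq start, at most 29 bases from each of these starts, are shown because the starts carried such different shares. They are from RefSeq on GRCm38.p6, 5′ to 3′ on the gene's strand. Capitals mark the GC box, the binding motif of Sp-family factors, searched as GGGCGG and its reverse complement CCGCCC. Overlapping matches run together.
Prickle1-201 start, chr15:93595903-93596152, minus strand: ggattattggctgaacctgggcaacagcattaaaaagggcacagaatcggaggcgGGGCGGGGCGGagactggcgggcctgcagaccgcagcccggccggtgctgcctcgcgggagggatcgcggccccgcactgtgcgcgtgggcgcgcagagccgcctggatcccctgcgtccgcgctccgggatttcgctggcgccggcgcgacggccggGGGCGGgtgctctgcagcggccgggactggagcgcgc
Prickle1-202 start, chr15:93519521-93519770, minus strand: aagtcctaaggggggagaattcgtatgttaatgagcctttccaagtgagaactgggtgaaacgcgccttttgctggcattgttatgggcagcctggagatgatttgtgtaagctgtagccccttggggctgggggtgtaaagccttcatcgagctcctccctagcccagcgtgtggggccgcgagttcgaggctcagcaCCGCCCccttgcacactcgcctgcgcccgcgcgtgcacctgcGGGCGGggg
Prickle2-201 start, chr6:92706185-92706434, minus strand: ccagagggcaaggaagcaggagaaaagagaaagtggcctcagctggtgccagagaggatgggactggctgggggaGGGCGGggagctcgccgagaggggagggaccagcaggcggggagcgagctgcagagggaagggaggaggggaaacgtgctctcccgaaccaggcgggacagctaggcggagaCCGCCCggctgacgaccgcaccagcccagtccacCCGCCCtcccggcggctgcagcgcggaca
Prickle2-204 start, chr6:92567367-92567616, minus strand: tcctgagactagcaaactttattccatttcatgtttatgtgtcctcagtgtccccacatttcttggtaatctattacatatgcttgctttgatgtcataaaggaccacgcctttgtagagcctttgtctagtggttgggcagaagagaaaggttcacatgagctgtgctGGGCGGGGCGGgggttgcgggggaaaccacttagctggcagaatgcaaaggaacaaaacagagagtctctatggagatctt
Prickle2-203 start, chr6:92534862-92535111, minus strand: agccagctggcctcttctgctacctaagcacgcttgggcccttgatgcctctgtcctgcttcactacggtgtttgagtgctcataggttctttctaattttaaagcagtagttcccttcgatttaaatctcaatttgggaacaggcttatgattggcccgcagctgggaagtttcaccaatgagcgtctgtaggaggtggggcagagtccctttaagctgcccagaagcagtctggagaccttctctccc
Prickle2-202 start, chr6:92481393-92481642, minus strand: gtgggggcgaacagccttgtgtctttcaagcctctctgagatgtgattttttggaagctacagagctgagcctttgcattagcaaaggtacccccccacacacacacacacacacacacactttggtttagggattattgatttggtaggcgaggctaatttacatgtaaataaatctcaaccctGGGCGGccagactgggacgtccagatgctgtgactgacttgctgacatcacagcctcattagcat

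CpG, the dinucleotide of promoter islands, was densest at the most upstream start of each gene. The window of Prickle1-201 held 34 CpG, a number that 3.53% of 32851 RefSeq windows of that length reached, and that of Prickle1-202 held 16, which 25.4% reached. The window of Prickle2-201 held 18 CpG, which 21.7% reached. The internal windows of Prickle2 held 4, 5 and 4, near the median of 6 over all windows. Within each gene the start with the largest share thus had the most CpG, while the second start of Prickle2 had no more than those with smaller shares. GC boxes were found 3 times and 2 times for Prickle1, 3 times at the upstream start of Prickle2 and 2, 0 and 1 times at its internal starts Prickle2-204, Prickle2-203 and Prickle2-202. The motif occurs in 32.7% of all windows and in 9 of the 11 windows found for 7 of the 10 genes. No window was found for Vangl1, Celsr1 and Scrib, and the window of Celsr3 had no transcript start within 200 bases. Dact1, with 41 CpG and 5 GC boxes, had the most of either. These matches describe letters and not binding.

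Scrib encodes a scaffold with PDZ domains that links polarity in the plane to apical and basal polarity and binds Vangl proteins. Scrib (ENSMUSG00000022568.12, chromosome 15, 76047158 to 76069784, minus strand) had 10.5 and 12.1 TPM, from 839 and 744 counts. Replicate 2 was slightly higher, at 1.13-fold [1.02 to 1.24], with 95% exact counting intervals in square brackets here and below. By TPM its leading model was not coding, whereas by reads it was. Scrib-204, a processed transcript of 3071 bases, carried 60.2% and 53.9% of the TPM. The coding Scrib-203, of 5545 bases, carried 39.8% and 46.1%. Scrib-203 held more reads, with 459.8 and 454.3 counts against 379.2 and 289.7 for Scrib-204. In replicate 2 the credibility bounds overlapped (5.14 to 7.16 TPM for Scrib-204 and 3.13 to 5.76 for Scrib-203). In replicate 1 they did not (5.20 to 6.86 and 2.26 to 4.34). Only 30 exonic bases of Scrib-203 and none of Scrib-204 lie outside all other Scrib models. Between this pair alone the difference is larger, since Scrib-203 is 5545 bases long and Scrib-204 3071. Reads on the bases of Scrib-203 that Scrib-204 lacks can therefore tell the pair apart. By the authors' posterior mean the shares were 56.1% and 49.7% for Scrib-204 and 31.8% and 37.1% for Scrib-203.

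Ptk7, a membrane protein with an inactive kinase domain that acts as a co-receptor in Wnt signalling, differed most between the libraries. Ptk7 (ENSMUSG00000023972.9, chromosome 17, 46564471 to 46629504, minus strand) had 6.09 TPM in replicate 1 and 19.2 in replicate 2, from 513 and 1192 counts. After scaling of the libraries it was 2.95-fold [2.66 to 3.28] higher in replicate 2. It has 1 transcript model, so no division among models enters its level. The authors' credibility bounds, 5.42 to 6.44 and 17.4 to 19.5 TPM, lay far apart. Of 12894 genes averaging 100 counts or more, 213 or 1.65% lay at least as far from equality. Replicate 2 was also the library in which the meninges and fibroblast genes summed to 977.9 TPM against 44.2, and the ganglion, endothelial and Schwann cell genes were higher there too. Their part in the Ptk7 difference was not tested.

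Dact1 encodes a protein that binds Dishevelled and tunes Wnt signalling. Dact1 (ENSMUSG00000044548.7, chromosome 12, 71309884 to 71320107, plus strand) had 18.5 and 26.4 TPM, from 1309 and 1382 counts. It was 1.34-fold [1.24 to 1.45] higher in replicate 2. Dact1-201 carried 94.5% and 95.2% of its TPM. Dact1-202, whose last coding exon is 111 bases longer, carried 5.48% and 4.77%.

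Between the libraries, 9 of the 10 genes stayed within 1.5-fold and Ptk7 did not. Among all 17623 genes averaging 10 counts or more, 19.2% were 1.5-fold or more apart and 10.8% were that much higher in replicate 2, so 1 in 10 is close to the background. For the 10 genes the log2 ratio, replicate 2 over replicate 1, had a median of 0.01, and over all genes tested of -0.002. Vangl2, Prickle1, Prickle2 and Celsr1 had intervals that include 1, at 0.993-fold [0.946 to 1.04], 0.985-fold [0.916 to 1.06], 0.990-fold [0.933 to 1.05] and 1.03-fold [0.877 to 1.20]. Vangl1 was 1.44-fold [1.23 to 1.68] higher in replicate 2, and by deposited TPM 1.59-fold. Celsr2 was at 0.899-fold [0.861 to 0.939] and Celsr3 at 0.809-fold [0.763 to 0.858], lower in replicate 2 by counts. By TPM Celsr3 was at 0.994-fold, and the share of its short coding model Celsr3-204 was 3.28% in replicate 1 and 11.8% in replicate 2. Scaling by the spike-in RNA raises every log2 ratio by 0.54, which turns Celsr2 and Celsr3 to 1.31-fold and 1.18-fold and Ptk7 to 4.30-fold, so these directions for Celsr2 and Celsr3 hold only relative to other genes.

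**Figure D4:**
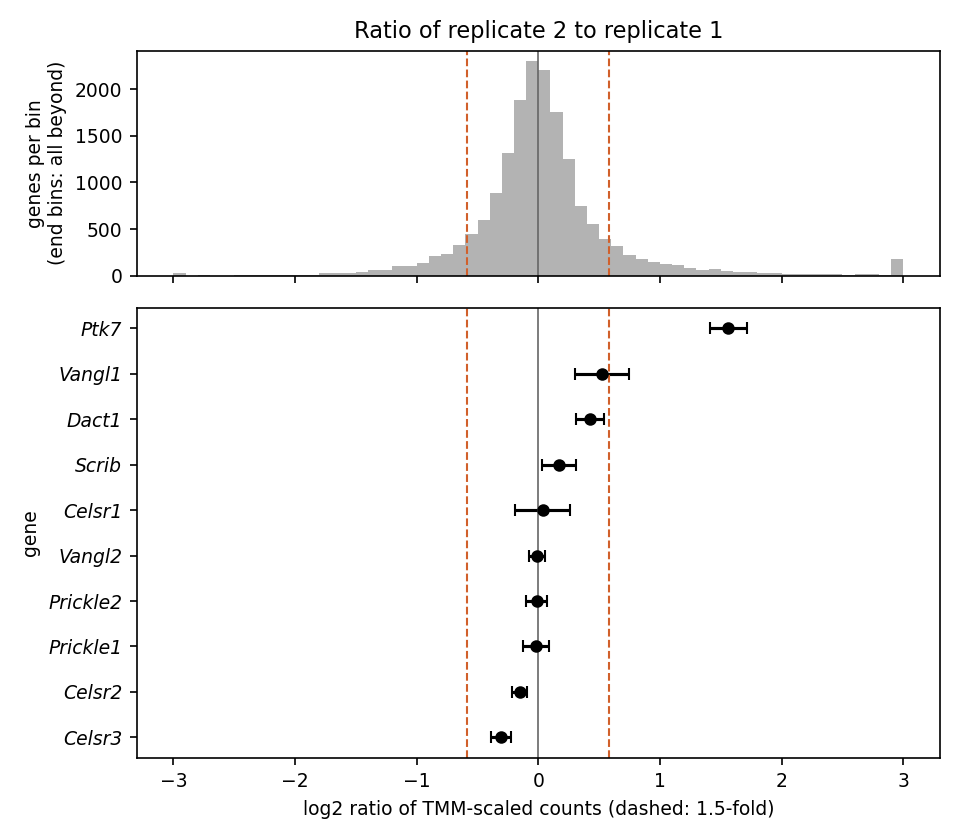
Top, number of genes per bin of 0.1 in the log2 ratio of replicate 2 to replicate 1 for the 17623 genes tested, with genes beyond the ends placed in the end bins. Bottom, the same ratio for each planar cell polarity gene with its 95% counting interval as bars, where Ptk7 alone lies beyond the dashed lines at 1.5-fold.

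The rest of the pathway was followed in 8 lists with 75 genes, of which 66 (88.0%) reached 1 TPM in both libraries, against 60.8% of protein-coding genes. Of 74 with a ratio, 10 (13.5%) were 1.5-fold or more higher in replicate 2, against 10.8% of all genes tested, and 3 were as much higher in replicate 1, against 8.44%. The sum, 17.6%, is close to the 19.2% of all genes. Spike-in scaling, added here after seeing the data, put 41 of the 74 that much higher in replicate 2 and 0 of the 74 in replicate 1. Of all genes tested, 44.1% and 2.36% were so under that scaling. The counts below therefore hold only relative to other genes. The list of canonical Wnt genes, kept for comparison, holds 3 of the 10.

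Ligands and receptors upstream of the core held 6 of the 10 pathway genes that were higher in replicate 2. Of 12 genes, 9 reached 1 TPM in both libraries and 6 were at least 1.5-fold higher in replicate 2, with none as much higher in replicate 1. The list had a median log2 ratio of 0.57, against -0.002 over all genes tested. The highest were Fzd3, the Frizzled of axon guidance (52.3 and 40.9 TPM), Cthrc1, a secreted Wnt cofactor (22.3 and 56.4), and the ligand gene Wnt5a (11.2 and 13.8). Fzd3 was at 0.733-fold [0.698 to 0.771] in replicate 2, which spike-in scaling turns to 1.07-fold. Cthrc1 was 2.39-fold [2.14 to 2.68] higher there. The Wnt5a receptor genes Ror1 (0.37 and 1.19 TPM) and Ror2 (0.84 and 1.83) were 3.03-fold [2.11 to 4.49] and 2.03-fold [1.49 to 2.82] higher. Fzd6 was 1.67-fold [1.44 to 1.94] higher (3.90 and 6.95 TPM) and Wnt5b 1.97-fold [1.51 to 2.61] (2.07 and 4.30). Wnt11, at 1.53-fold [0.907 to 2.64] from 28 and 34 counts, had an interval that includes 1. The meninges, ganglion and vascular markers were higher in the same library, and their part in these ratios was not tested.

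Cytoplasmic partners of the core were nearly equal in the libraries, apart from rare Prickle paralogues. Of 8 genes 7 reached 1 TPM in both libraries, and the list's median log2 ratio was -0.02. The Dishevelled genes Dvl3 (27.2 ± 0.0566 TPM) and Dvl2 (15.3 ± 0.53) and the Diego homologue Ankrd6 (17.5 ± 1.44) were highest. By mean TPM Dact2 (1.66 and 1.85) and Prickle3 (1.62 and 1.05) were lowest, although Prickle4 was under both in replicate 1 (0.95 and 3.70). Prickle4 was 4.39-fold [2.36 to 9.48] higher in replicate 2, from 12 and 43 counts, and Prickle3 1.63-fold higher in replicate 1, from 73 and 35 counts, a call that spike-in scaling ends (0.889-fold in replicate 2).

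Partners of Scrib and cytoskeletal effectors mostly stayed within 1.5-fold. The list of Scrib partners had a median of 19.2 and 19.8 TPM in replicates 1 and 2, and the effector list 35.2 and 24.9. Protein-coding genes that reached 1 TPM in both libraries had a median of 21.2. Of 14 genes of the Scribble module and the apical-basal system 13 reached 1 TPM, led by the atypical kinase gene Prkcz (66.5 ± 2.40), the exchange factor gene Arhgef7 (60.3 ± 3.16) and Pard6a (39.5 ± 5.22). Lrrc1 (6.48 and 4.81) and Llgl2 (0.41 and 0.65) were lowest, and Dlg2, a synaptic scaffold gene, was 1.73-fold higher in replicate 1 (43.1 and 27.6 TPM), but at 0.845-fold in replicate 2 under spike-in scaling it no longer passed. All 13 effector genes reached 1 TPM, led by the small GTPase genes Cdc42 (792 and 815), Rac1 (281 and 296) and Rhoa (119 and 141), with Shroom3 (2.12 and 2.48) and Daam2 (4.82 and 5.49) lowest. Daam1, a formin gene that binds Dishevelled, was 1.54-fold higher in replicate 1 (35.2 and 24.5 TPM), and at 0.950-fold under that scaling it did not pass either.

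The Fat and Dachsous, ciliary and closure lists had no gene past 1.5-fold among those with a ratio. Of 7 genes of the Fat and Dachsous system, a second polarity system of giant cadherins, 6 reached 1 TPM, led by Fjx1 (29.1 ± 3.34), Fat1 (28.5 ± 1.94) and Fat4 (23.7 ± 1.30). Dchs2 had 2.44 and 2.11 TPM, and Fat2 had 0 and 16 counts. All 7 ciliary effector genes reached it, led by Bbs4 (28.3 ± 0.834), Fuz (12.2 ± 0.792) and Mks1 (8.84 ± 0.721), with Invs (4.94 ± 0.198) and Intu (3.20 ± 0.226) lowest. Of 6 further closure genes 5 did, led by the actin-severing factor gene Cfl1 (2401 and 2289), Sec24b (30.1 ± 2.65), which carries Vangl2 out of the endoplasmic reticulum, and Mib1 (24.0 ± 5.04). Tbc1d32 had 2.43 and 1.97 TPM, and Grhl3, needed for spinal closure, stayed at 0.79 and 0.82.

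**Figure D5:**
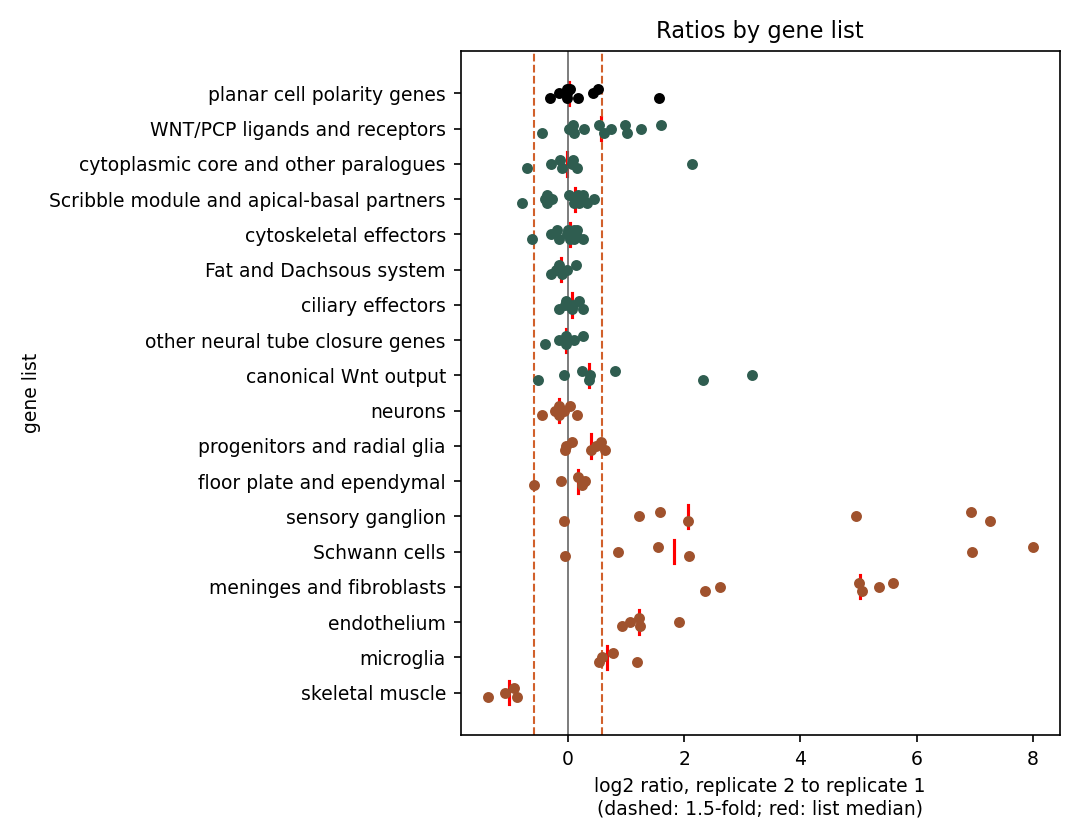
Log2 ratio of replicate 2 to replicate 1 for each gene averaging 10 counts or more in the planar cell polarity genes (black), the 8 pathway lists (green) and the marker lists (brown), with list medians in red and 1.5-fold as dashed lines. Among the black points only Ptk7 lies beyond the dashed lines, and the median of the meninges list, 5.03, exceeds that of each pathway list.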

How the data were processed

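The deposited expected counts are reads estimated per gene or transcript, unscaled, per the file headers. TPM and FPKM, as the authors deposited them, are scaled by length and depth. Percent columns deposited by the authors give each transcript's share of its gene's TPM. From the score columns of the authors only the TPM credibility bounds were used, and their level is not given in the sources used here. README texts deposited by the authors name mm10 and GENCODE M4. Aligner, quantifier and strand setting: not given in the sources used here.

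Symbols, coordinates (1-based), transcript types and coding exons came from GENCODE M21 on GRCm38 by identifier without version (42462 of 43346 gene rows matched). Of 43 transcripts of the 10 genes, 5 have another length in M21 (2 of Vangl1, Celsr1-201, Ptk7-201 and Prickle2-201). Counts were rounded, and ratios used TMM library sizes (edgeR 4.0.16, R 4.3.3), a prior count of 0.5 and genes averaging 10 counts or more, after a test on simulated data. DESeq2 1.42.0 size factors were an alternative. A symbol on several rows took the row with most counts. Rows that name no gene held 3.31% and 2.29% of the counts and stayed out of library sizes. Intervals are Clopper-Pearson (95%); they and the 3-count limit cover counting error only, as amplified reads can repeat a molecule. The spread between the pups may be partly technical. The 10 genes and the pathway and marker lists were chosen with earlier results of these data known. The 3 highest and 2 lowest genes of each pathway list and those past 1.5-fold are named. RefSeq supplied the promoter windows (GRCm38.p6). Figures used matplotlib 3.10.9. Alternatives covered thresholds, FPKM, posterior means, pseudocounts, scaling, filters and each library alone.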

Additional observations from a re-analysis of the deposited data

How the results depend on the processing

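With 1 group no paired analysis was possible because there is no second group to pair with. All 10 genes reached 1 TPM in both libraries, and 9 did at 5 TPM or at 1 FPKM. The median level of the 10 genes, 20.9 TPM, was 12.4 in FPKM, 19.3 to 21.1 in single libraries and 12.4 by the leading coding transcript, which leaves out the other models by construction. The number of genes 1.5-fold apart was 1 by TMM, where 19.2% of all genes tested passed. By spike-in totals it was 4 (Ptk7, Vangl1, Dact1 and Scrib), all higher in replicate 2. Under that scaling 44.1% of all genes tested were that much higher, so 4 of 10 is close to the background. The number was 2 by deposited TPM (Ptk7 and Vangl1) and 3 at a lower fold limit, with no share over all genes counted for either. The median log2 ratio was 0.56 by spike-in totals, against 0.541 over all genes tested, and 0.10 by deposited TPM. Of 74 pathway genes with a ratio, 10 were 1.5-fold higher and 3 lower in replicate 2. By spike-in totals 41 and 0 were, a scaling that shifts every ratio upward by construction and puts 44.1% and 2.36% of all genes tested there. By the leading coding transcript the log2 difference was 0.72 for Celsr2 over Celsr3, 3.42 for Celsr2 over Celsr1, 2.70 for Celsr3 over Celsr1 and 0.72 for Prickle1 over Prickle2. With a pseudocount of 1 TPM, which shrinks ratios of low genes by construction, it was 4.06 for Celsr2 over Celsr1 and 3.06 for Celsr3 over Celsr1. No difference within a family and no ratio of the 10 genes past 1.5-fold changed direction under any alternative run. Depth limits Celsr1 and Vangl1, with 292 to 361 counts in each library, and the shares of transcripts with few bases of their own.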

Other observations

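Among 8 genes of canonical Wnt signalling, listed for comparison with the polarity branch, 3 were at least 1.5-fold higher in replicate 2. None was as much higher in replicate 1, and 5 did not pass. Of all genes tested, 10.8% were that much higher in replicate 2. Of the 8 genes 6 reached 1 TPM in both, led by Ctnnb1, the beta-catenin gene (210 and 285 TPM), Nkd1 (12.0 and 16.7) and Nkd2 (7.88 and 7.89). The feedback gene Axin2 had 5.28 and 7.47 TPM. Sp5, a direct target, had 0.35 and 3.41 TPM and stood 8.93-fold [5.27 to 17.5] higher in replicate 2. Notum, whose product inactivates Wnt ligands, had 0.83 and 5.00 TPM, a 5.01-fold [3.4 to 7.79] excess. Lef1, a nuclear mediator, had 3.05 and 5.84 TPM, a 1.75-fold [1.45 to 2.10] excess. Lgr5 had the opposite ratio, at 0.696-fold [0.572 to 0.842] (4.03 and 2.47 TPM), which spike-in scaling turns to 1.01-fold. Axin2 was named beyond the rule, as was Lgr5, after their values were seen. Markers of meninges, ganglion and vessels were higher in replicate 2 as well, and their part in these ratios was not tested.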
